A study of Mus musculus with 14 samples.

Results

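The nuclear-encoded subunits of oxidative phosphorylation were followed in the medial prefrontal cortex (mPFC) of socially defeated and naive mice. Members were taken by gene symbol, as probes whose transcript accession mapped to an Nduf, Sdh, Uqcr, Cox4 to Cox8 or Atp5 subunit name, and the brightest probe stood for each gene. Of 87 protein-coding symbols of this form in the gene table, 84 had a named probe, out of 20887 named genes on the array. They comprised 37 genes of complex I, 4 of complex II, 8 of complex III, 18 of complex IV and 17 of complex V. Of these, 82 were well above background in every mouse of 1 or more groups and were tested together with all other such genes (14445 in all), and 81 were above background on all 14 arrays. The 2 members left untested were the complex IV isoforms Cox7b2, above background on 2 arrays, and Cox8c, above background on 0.

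The study exposed wild-type C57BL/6 mice to repeated social defeat, in which a mouse meets an aggressive mouse over several sessions, and classed the defeated mice by behaviour. The groups were 6 susceptible mice and 3 resilient mice, both defeated, and 5 naive mice that were only moved between cages. Perfusion followed the last session by 4 h, the mPFC was taken with a 1.5 mm punch, and each mouse gave 35 ng of RNA for an array of its own, labelled with Cy3. The labels give no age or sex. In such tissue, fewer cells of a type and less RNA per cell cannot be told apart, which holds for every result below.

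Oxidative phosphorylation makes most of the ATP of neurons. Complexes I and II pass electrons from NADH and succinate to ubiquinone, complex III passes them to cytochrome c, complex IV reduces oxygen with them, and complex V, the ATP synthase, uses the proton gradient that complexes I, III and IV build up. Most subunits are encoded in the nucleus and imported, and a few catalytic ones are encoded in mitochondrial DNA, which were not analysed here. Complex I has core subunits, which carry the electron path and are shared with bacteria, and supernumerary subunits around them that serve its assembly and stability.

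Levels below are log2 of the processed spot signal minus the 75th percentile of that array, and differences are between group means on that scale. The 14 arrays were spread over 3 slides and 2 scan days. Slide 1 held susceptible 1 and 2, resilient 1 and 2 and naive 1, slide 2 held susceptible 3 and 4, resilient 3 and naive 2 and 3, and slide 3 held susceptible 5 and 6 and naive 4 and 5. Every array of a defeated mouse lay in row 2 of its slide and every naive array in row 1. Defeat therefore cannot be told apart from slide row. Array brightness (the 75th percentile of log2 signal) was 7.69 to 9.24 in susceptible, 7.96 to 8.17 in resilient and 7.25 to 8.64 in naive mice, and no spot was saturated. As a check of the labelled tissue, all 8 neuron markers were above background on every array.

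The naive mice differed among themselves in these genes more than the groups did. The median member, as a difference from the naive mean, lay in the susceptible mice between -0.22 and 0.02 with a median of -0.14. In the resilient mice it lay at -0.18, -0.24 and -0.17, and in naive 1 to 5 at -0.13, 0.10, 0.35, -0.08 and -0.19. Naive 3 was the highest of all mice, and naive 1 and naive 5 lay among the defeated mice, so that both defeated groups overlapped the naive range. Naive 3 had the highest level of the 5 naive mice in 67 of 82 members, against 37.4% of all genes tested, and naive 5 the lowest in 43, against 17.6%. The array of naive 3 was also the dimmest, at 7.25, close to naive 1 at 7.31 and naive 2 at 7.36. Summed meningeal fibroblast markers on the linear scale were 47.5 to 422 in susceptible, 45.0 to 634 in resilient and 143 to 1094 in naive mice, with naive 3 the highest, and 5 of these 8 markers were above background on every array. The part of these markers in the result was not tested. With array brightness as a covariate, the median member differed from naive mice by -0.06 in susceptible mice, with 54 of 82 lower, and by -0.17 in resilient mice, with 70 lower, and complex IV by -0.14 and -0.23. The results without naive 3 are given beside most medians and beside the genes that passed with slide as a block.

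**Figure D1:**
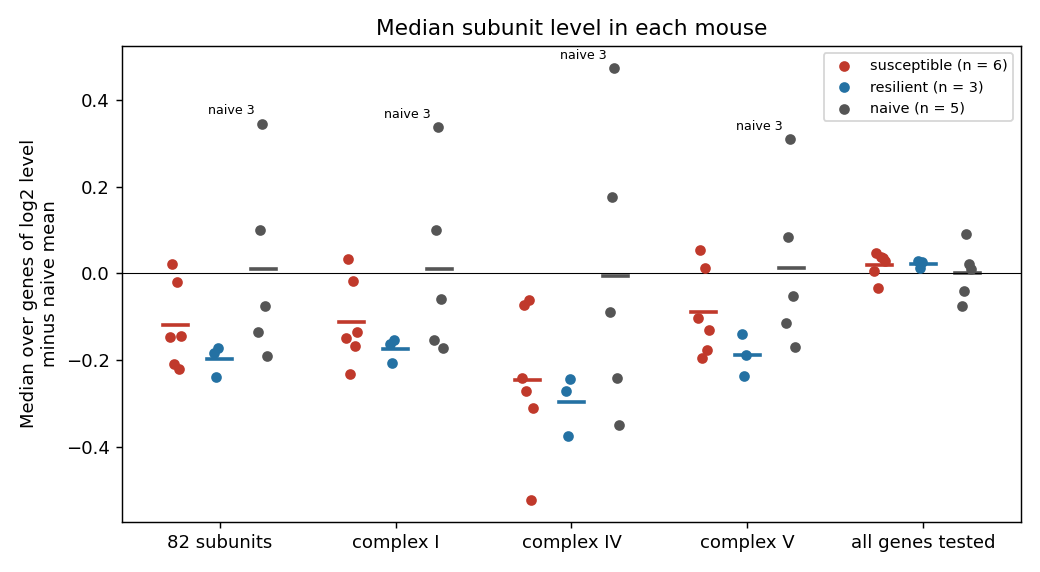
Median over genes of each mouse's log2 level minus the naive mean, for the 82 tested subunits, for complexes I, IV and V, and for all genes tested. Points are mice (6 susceptible, 3 resilient, 5 naive) and lines are group means. Naive 3 is at 0.35 over all subunits, while the other naive mice lie between -0.19 and 0.10.

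In susceptible mice no single subunit passed the test against naive mice. Of 82 members, 0 had a limma adjusted p under 0.05, where 2.6% of all genes did (1.64% higher and 0.962% lower), and 14 had an unadjusted p under 0.05, all of them lower, where 24% of all genes did (13.1% higher and 10.9% lower). The median member differed by -0.12, with 63 of 82 lower, while the median gene of all those tested was at 0.02, but this direction turned to 0.03 under quantile normalisation. Without naive 3 the median was -0.03, with 48 of 82 lower. No member had all susceptible mice outside the naive range (0 of 82, against 1.64% of all genes fully below and 2.49% fully above).

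Resilient mice gave a similar picture with a larger median. Of 82 members, 0 passed the test against naive mice, where 0.152% of all genes did (0.09% higher and 0.0623% lower), and 17 had an unadjusted p under 0.05, all lower, where 20.3% of all genes did (10.7% higher and 9.62% lower). The median member differed by -0.20, with 75 of 82 lower, against 0.02 for all genes, and by -0.04 under quantile normalisation. Without naive 3 it was -0.12, with 64 of 82 lower. In 14 members (17.1%) all 3 resilient mice lay below all 5 naive mice, against 6.41% of all genes below and 8.32% above, and 9 of the 14 were complex I subunits, 1 was of complex III, 2 were of complex IV and 2 of complex V. The comparisons of susceptible and of resilient mice share the 5 naive mice, so their values are given side by side and not as independent.

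Susceptible and resilient mice were compared directly to ask what distinguished the behavioural classes. Of 82 members, 0 passed (limma, with 0 at an unadjusted p under 0.05, and 0% of all genes called). The median member was 0.09 higher in susceptible mice, with 76 of 82 higher, while the median gene was at 0.01. Cox7c, a small complex IV subunit, was the 1 member whose susceptible mice all lay above the resilient mice (1.22% of members, against 0.305% of all genes). Its difference was 0.20 by the brightest probe, the one used. Of its other probes, 1 differed by 0.24 and 1, far dimmer at a mean level of -1.83, by -0.05. The levels of Cox7c ran from 5.63 over a median of 5.73 to 5.87 in susceptible mice, with 5.45, 5.53 and 5.61 in resilient and 5.61, 6.19, 6.49, 5.97 and 5.84 in naive mice.

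Complex IV, cytochrome c oxidase, had the lowest median of the 5 complexes in both comparisons. Its 16 tested members had a median of -0.26 in susceptible against naive mice, with 14 lower, and of -0.28 in resilient against naive mice, with 16 of 16 lower. These medians kept their sign under quantile normalisation, at -0.03 and -0.09, and without naive 3, at -0.13 and -0.16. They were also below 0 within every slide. For susceptible mice they were -0.12, -0.46 and -0.13 on slides 1, 2 and 3, with 9, 15 and 15 of 16 members lower. For resilient mice they were -0.28 and -0.54 on slides 1 and 2, with 15 of 16 lower on each. Slide 1 held 1 naive mouse, and slide 2 held naive 3 and 1 resilient mouse.

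Cox6c, a small nuclear subunit of complex IV, was the lowest member in both comparisons. Its levels ran from 6.84 over a median of 7.03 to 7.31 in susceptible mice, were 6.84, 6.91 and 6.90 in resilient mice, and were 7.40, 7.83, 8.14, 7.21 and 7.10 in naive mice. All resilient mice lay below all naive mice, and the susceptible mice overlapped the naive range through susceptible 2, whose 7.31 lay above naive 4 and naive 5. The difference was -0.50 ± 0.16 (SE) for susceptible mice (limma adjusted p = 0.0961) and -0.65 ± 0.20 for resilient mice (limma adjusted p = 0.109). Without naive 3 the differences were -0.35 and -0.50. With slide as a block they were -0.51 (limma adjusted p = 0.0269) and -0.76 (limma adjusted p = 0.0386).

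Cox6a1 encodes the subunit VIa form found outside heart and muscle. Its levels ran from 8.72 over a median of 9.14 to 9.35 in susceptible mice, were 8.95, 9.11 and 9.11 in resilient mice, and were 9.44, 9.75, 10.06, 9.26 and 9.13 in naive mice. All resilient mice lay below the lowest naive mouse, while susceptible mice overlapped naive 4 and naive 5. The difference was -0.41 ± 0.16 for susceptible mice (limma adjusted p = 0.141) and -0.47 ± 0.19 for resilient mice (limma adjusted p = 0.190). With slide as a block the adjusted p was 0.0224 and 0.0370 by limma, and without naive 3 in that fit 0.0361 and 0.0471.

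**Figure D2:**
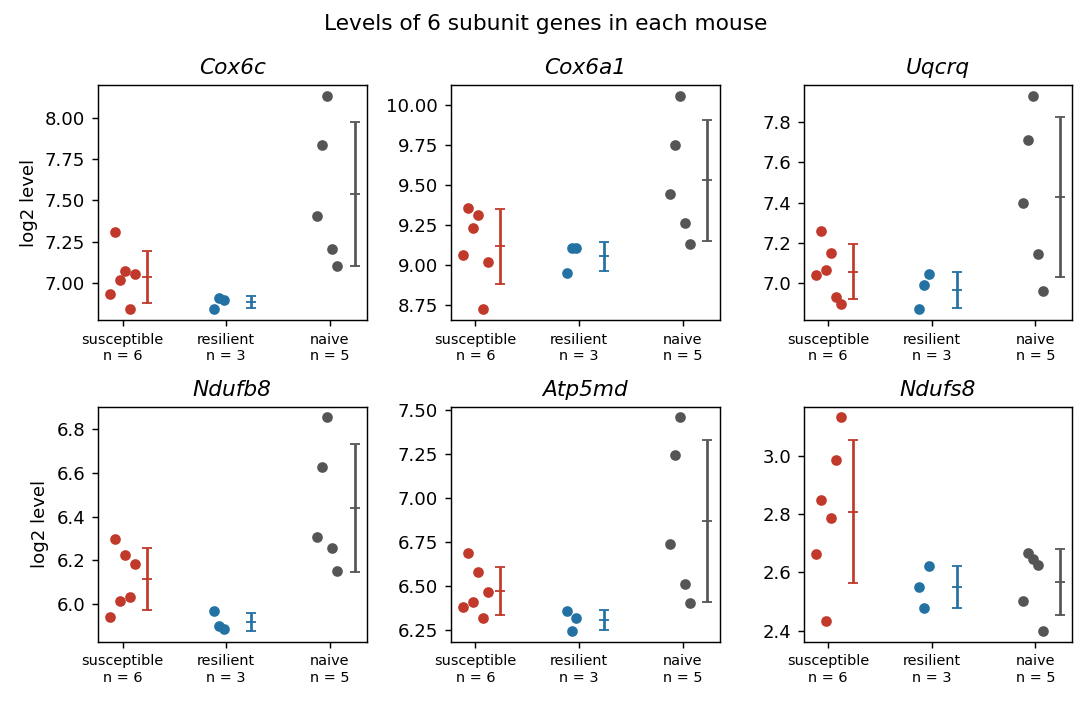
Log2 level of Cox6c, Cox6a1, Uqcrq, Ndufb8, Atp5md and Ndufs8 in each mouse (points), with the group mean ± SD beside them, for 6 susceptible, 3 resilient and 5 naive mice. Naive 3 holds the highest point of the first 5 genes, and Ndufs8 has its highest values in susceptible mice, up to 3.13.

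The other complex IV members that passed with slide as a block in susceptible mice were Cox7a2l, Cox8a and Cox4i2. Cox7a2l differed by -0.34 ± 0.13 (limma adjusted p = 0.131, with the block 0.0499). Cox8a, the ubiquitous subunit VIII, differed by -0.36 ± 0.18 (limma adjusted p = 0.237, with the block 0.0379), and turned to 0.01 under quantile normalisation. Cox4i2 is an isoform of the regulatory subunit IV known for its induction by low oxygen in other tissues. It differed by -0.29 ± 0.13 (limma adjusted p = 0.177, with the block 0.0405). Without naive 3 the differences of Cox7a2l, Cox8a and Cox4i2 were -0.21, -0.21 and -0.29. With the block they then had limma adjusted p of 0.0686, 0.0624 and 0.0405, so only Cox4i2 still passed. Of the 14 block fits that each left out 1 mouse, Cox7a2l passed in 1, Cox8a in 4 and Cox4i2 in 4.

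The paired isoforms of complex IV were measured by separate probes, so levels are given per gene and not ranked. Cox4i1, the usual subunit IV, averaged 7.95 ± 0.23 (SD) in susceptible, 7.89 ± 0.04 in resilient and 8.27 ± 0.41 in naive mice. The muscle forms Cox6a2 and Cox7a1 were above background on all arrays. Cox6a2 averaged 1.46 ± 0.23, 1.43 ± 0.26 and 1.50 ± 0.34 in susceptible, resilient and naive mice, and Cox7a1 averaged 0.69 ± 0.20, 0.69 ± 0.16 and 1.02 ± 0.48. Cox6b1 averaged 3.58 ± 0.12, 3.46 ± 0.06 and 3.62 ± 0.12, and its testis form Cox6b2 averaged 0.11 ± 0.33, 0.21 ± 0.14 and 0.26 ± 0.43 in those groups. The 3 groups overlapped in each of these 4. Cox7a2 averaged 6.04 ± 0.13, 5.98 ± 0.08 and 6.25 ± 0.29, and Cox7b averaged 6.13 ± 0.14, 5.99 ± 0.06 and 6.30 ± 0.32, with n = 6, 3 and 5 throughout. The muscle form Cox8b was dim, at -2.65 ± 0.74 in susceptible, -2.79 ± 0.84 in resilient and -2.77 ± 0.60 in naive mice, and was above background in 2 of 3 resilient mice.

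Core and supernumerary subunits of complex I are described separately, and the difference between these classes was not tested. The 28 supernumerary subunits had a median of -0.13 in susceptible against naive mice, with 25 lower, but 0.02 under quantile normalisation and 0.08 within slide 1, where 8 were lower. It was -0.35 within slide 2, -0.03 within slide 3, -0.03 with normexp background correction and -0.04 without naive 3. In resilient against naive mice it was -0.23, with 25 lower, and -0.15 without naive 3. The 7 nuclear core subunits had a median of 0.09 in susceptible mice, with 6 of 7 higher, and of -0.02 in resilient mice, which turned to 0.04 under quantile normalisation, 0.02 with normexp background correction and 0.0021 without naive 3. In susceptible mice the core median stayed above 0 without naive 3 (0.09), under quantile normalisation (0.13) and within slides 1 and 3 (0.22 and 0.12), but was -0.05 within slide 2. No core subunit passed the test, and Ndufa4 and Ndufa4l2 were counted in neither class, since Ndufa4 is now placed in complex IV.

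Ndufs8, a core subunit that holds iron-sulfur clusters, had the highest difference in susceptible mice after Ndufa10. Levels of Ndufs8 ran from 2.43 over a median of 2.82 to 3.13 in susceptible mice, were 2.55, 2.48 and 2.62 in resilient mice, and were 2.50, 2.67, 2.65, 2.62 and 2.40 in naive mice. Of the 6 susceptible mice, 4 lay above the naive maximum and susceptible 3 near its minimum, while the resilient mice lay inside the naive range. The difference was 0.24 ± 0.12 in susceptible mice (limma adjusted p = 0.220), and 0.26 without naive 3. Ndufa10, a supernumerary subunit, differed by 0.31 ± 0.24 (limma adjusted p = 0.461), and without naive 3, whose level of 1.44 was the lowest of all mice, by 0.08.

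Among supernumerary subunits, Ndufb8, whose protein is lost when complex I is not assembled, had the lowest difference in resilient mice. Its levels ran from 5.94 over a median of 6.11 to 6.30 in susceptible mice, were 5.97, 5.90 and 5.89 in resilient mice, and were 6.31, 6.63, 6.85, 6.26 and 6.15 in naive mice. Resilient mice lay below all naive mice, and susceptible mice overlapped naive 4 and naive 5. The difference was -0.32 ± 0.12 in susceptible mice (limma adjusted p = 0.135) and -0.52 ± 0.15 in resilient mice (limma adjusted p = 0.103), and without naive 3 it was -0.22 and -0.42. Ndufb9, also of the membrane arm, differed by -0.32 ± 0.13 in susceptible mice (limma adjusted p = 0.146) and passed with slide as a block (limma adjusted p = 0.0473). Without naive 3 the block fit gave Ndufb9 a limma adjusted p of 0.0728. Of the 14 block fits that each left out 1 mouse, Ndufb9 passed in 3. Ndufa1, essential for complex I assembly, differed by -0.31 ± 0.11 in susceptible mice (limma adjusted p = 0.125) and by -0.44 ± 0.14 in resilient mice (limma adjusted p = 0.115). Ndufb4 differed by -0.31 ± 0.12 and Ndufa11 by 0.15 ± 0.10 in susceptible mice. Ndufa13, also known as Grim-19, averaged 7.73 ± 0.13 (SD) in susceptible, 7.60 ± 0.07 in resilient and 8.06 ± 0.36 in naive mice.

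**Figure D3:**
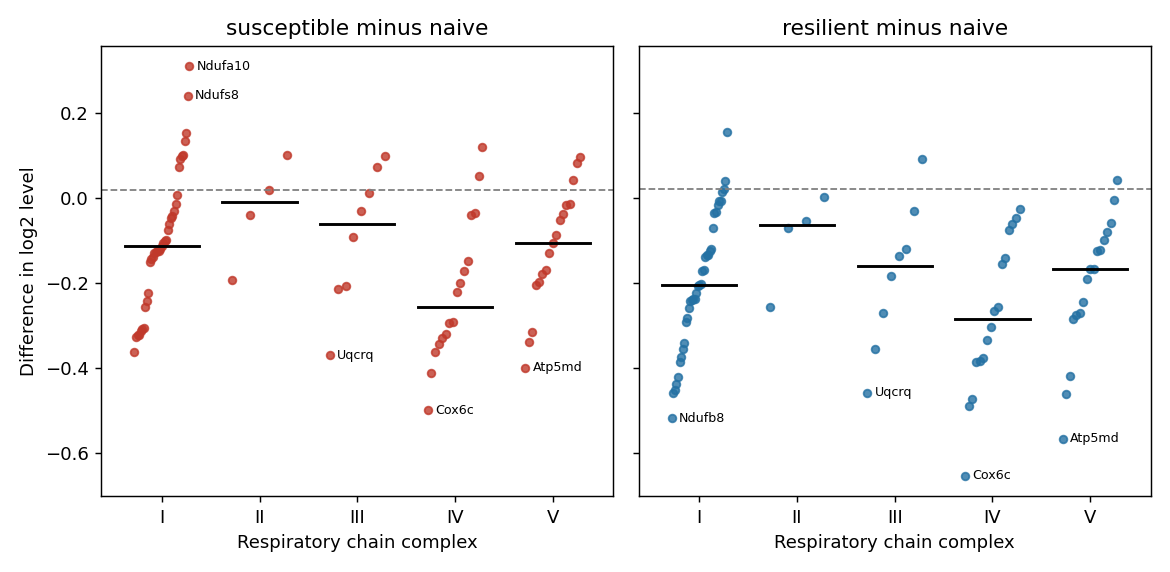
Difference in log2 level from naive mice for each of the 82 tested subunits (points, ordered within a complex), in susceptible (left) and resilient (right) mice, with the median of each complex (black line) and of all genes tested (dashed line). Complex IV has the lowest median in both, at -0.26 and -0.28 (-0.03 and -0.09 under quantile normalisation), and complex I spans the widest range in susceptible mice, up to Ndufa10 at 0.31.

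Complex II, succinate dehydrogenase, which also works in the TCA cycle, had medians of -0.01 in susceptible and -0.06 in resilient against naive mice, which turned to 0.10 and 0.04 under quantile normalisation, to 0.08 and 0.0062 with normexp background correction, and for susceptible mice to 0.0048 with the array median for scaling and 0.04 without naive 3. Sdha, the flavoprotein subunit, averaged 4.30 ± 0.20 in susceptible, 4.20 ± 0.07 in resilient and 4.20 ± 0.19 in naive mice (SD). Sdhb, the iron-sulfur subunit, averaged 6.18 ± 0.10, 6.17 ± 0.05 and 6.22 ± 0.18 in those groups. The membrane anchors were Sdhc, at 3.17 ± 0.17, 3.10 ± 0.08 and 3.36 ± 0.22, and Sdhd, at 4.38 ± 0.11, 4.29 ± 0.05 and 4.36 ± 0.10. The lowest was Sdhc, with -0.19 ± 0.11 in susceptible mice (limma adjusted p = 0.309) and -0.26 ± 0.14 in resilient mice (limma adjusted p = 0.302).

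Complex III, the cytochrome bc1 complex, had 8 members with a median of -0.06 in susceptible mice and -0.16 in resilient mice, which turned to 0.06 and 0.0015 under quantile normalisation, and for susceptible mice to 0.04 with normexp background correction and 0.03 without naive 3. Within slide 1 they were 0.22 and 0.04, and within slide 2 -0.27 and -0.36. Uqcrq, the small ubiquinone-binding subunit, was its lowest member. Its levels ran from 6.90 over a median of 7.05 to 7.26 in susceptible mice, were 6.87, 6.99 and 7.04 in resilient mice, and were 7.40, 7.71, 7.93, 7.15 and 6.96 in naive mice. Resilient mice overlapped naive 5, and susceptible mice overlapped naive 4 and naive 5. The difference was -0.37 ± 0.15 in susceptible mice (limma adjusted p = 0.156, with slide as a block 0.0317) and -0.46 ± 0.18 in resilient mice (limma adjusted p = 0.178, with the block 0.0417). Without naive 3 the differences were -0.25 and -0.33, and with the block they then had limma adjusted p of 0.0527 and 0.0518. Uqcrh, the hinge subunit, differed by -0.21 ± 0.10 in susceptible mice (limma adjusted p = 0.218), which turned to 0.01 under quantile normalisation, and by -0.27 ± 0.12 in resilient mice (limma adjusted p = 0.233). Uqcr11, another small subunit, differed by -0.21 ± 0.17 in susceptible mice, which turned to 0.02 under quantile normalisation and was -0.03 without naive 3.

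Complex V, the ATP synthase, had 17 members with a median of -0.11 in susceptible mice and -0.17 in resilient mice, which turned to 0.05 and 0.02 under quantile normalisation, and for susceptible mice to 0.0024 with normexp background correction. Within slides 1, 2 and 3 the median in susceptible mice was 0.07, -0.35 and -0.0031, and within slides 1 and 2 that in resilient mice was -0.06 and -0.34. Without naive 3 the medians were -0.02, with 9 of 17 lower, and -0.09. Atp5md, a small subunit at the dimer interface of the membrane part, was its lowest member. Its levels ran from 6.31 over a median of 6.44 to 6.68 in susceptible mice, were 6.36, 6.24 and 6.31 in resilient mice, and were 6.73, 7.25, 7.46, 6.51 and 6.40 in naive mice. All resilient mice lay below all naive mice, and susceptible mice overlapped naive 4 and naive 5. The difference was -0.40 ± 0.17 in susceptible mice (limma adjusted p = 0.167) and -0.57 ± 0.20 in resilient mice (limma adjusted p = 0.145), and -0.25 and -0.42 without naive 3. Atp5l, a membrane subunit, differed by -0.34 ± 0.15 and Atp5j, of the peripheral stalk, by -0.20 ± 0.09 in susceptible mice (limma adjusted p = 0.176 for both), and without naive 3 by -0.22 and -0.18. Atp5b, the catalytic beta subunit, averaged 7.48 ± 0.10 in susceptible, 7.43 ± 0.05 in resilient and 7.43 ± 0.13 in naive mice (SD).

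With slide as a block, 7 of 82 members (8.54%) were lower in susceptible mice, against 15.3% of all genes called in either direction, 8.85% called higher and 6.49% called lower, and 0 were higher. In resilient mice 3 members (3.66%), Cox6c, Cox6a1 and Uqcrq, were lower, against 3.54% called in either direction, 2.04% called higher and 1.5% called lower. These counts rested on single mice. For susceptible mice the count was 14 without susceptible 6, 0 without susceptible 4, and 1 to 3 without naive 1, 2, 3 or 4, susceptible 1, 3 or 5, or resilient 1 or 3. For resilient mice it was 9 without susceptible 6, 6 without naive 5, and 0 without naive 1, 2 or 4, susceptible 2 or 5, or any of the resilient mice. Without naive 3 there were 3 in each comparison, with Cox6c and Cox6a1 in both.

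**Figure D4:**
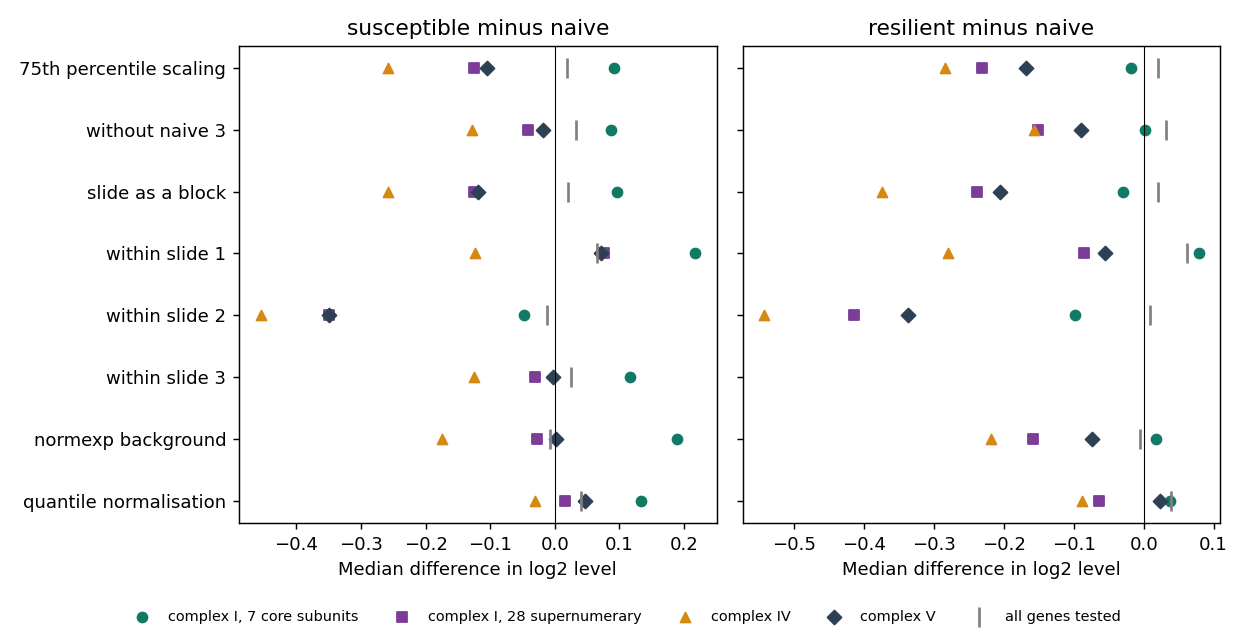
Median difference in log2 level from naive mice under 8 settings for the 7 core and 28 supernumerary complex I subunits, complex IV and complex V, in susceptible (left) and resilient (right) mice, with the median of all genes tested (grey ticks). Slide 3 held no resilient mouse. Complex IV is left of 0 in every setting shown, and the complex V median in susceptible mice lies at -0.11 in the main scaling and at 0.05 under quantile normalisation.

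Signal strength was set beside these values. The 65 members with a mean log2 level above 4 had a median of -0.13 in susceptible and -0.24 in resilient against naive mice, where all 1559 genes above 4 had -0.04 and -0.05. The 11 members between 2 and 4 had 0.10 and -0.12, where all 2761 genes in that range had 0.03 and 0.02. Astrocyte markers moved with the groups, with sums of 446 to 567 in susceptible, 457 to 530 in resilient and 627 to 822 in naive mice on the linear scale. All 9 astrocyte markers were above background on every array. Sums of the 8 neuron markers were 309 to 438 in susceptible, 411 to 426 in resilient and 346 to 401 in naive mice, so that every resilient mouse lay above every naive mouse. The median neuron marker differed by 0.22 in susceptible mice, with 7 of 8 higher, and by 0.27 in resilient mice, with 8 of 8 higher, and 0 passed the test. Within slide 3 it was -0.03 in susceptible mice, with 6 of 8 lower. In susceptible mice the median astrocyte marker differed by -0.40, with 9 of 9 lower and 2 passing, against 2.6% of all genes. Oligodendrocyte markers had -0.43 (7 of 8 lower) and endothelial markers -0.59 (5 of 6, 1 passing). Pericyte or smooth muscle markers had -0.52 (4 of 5) and microglia markers -0.01 (4 of 8). In resilient mice these medians were -0.43, -0.11, -0.55, -0.28 and -0.19. Meningeal fibroblast markers had -1.06 in susceptible and -1.16 in resilient mice, with 8 of 8 lower in both, but 0.65 within slide 2 in resilient mice. Erythroid markers had 1.63 and 0.95, with 4 of 4 higher in both. Blood leukocyte markers had 0.10 in susceptible mice (4 of 5 higher, 2 passing), which turned to -0.08 with normexp background correction, and -0.02 in resilient mice (2 of 5 higher). Sums of erythroid markers were 6.02 to 62.4 in susceptible, 7.51 to 45.0 in resilient and 3.71 to 14.8 in naive mice, and 3 of these markers were above background on every array. The part of these cell types in the result was not tested.

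The promoters of the members were searched for 3 motifs of factors known to act on respiratory genes. Of the members, 68 had a RefSeq promoter sequence (build GRCm38.p6, 250 bases before to 50 after the start), and both strands were read. The NRF1 motif GCGCATGCG was in 8 of 68 (11.8%), against 1.81% of 27025 promoters of all genes. The ETS motif CCGGAAGT was in 5 (7.35%), against 4.0%, and the YY1 motif AAGATGGCG in 6 (8.82%), against 1.49%. NRF1 motifs read on both strands overlap each other, and a match is a description of letters only. Of the 18 members that passed with slide as a block or that were lower without overlap in resilient mice, 14 had a promoter sequence and 3 of these held a motif, where 18 of all 68 members (26.5%) and 6.95% of all genes did. Those 3 are shown from 250 bases before to 10 after the start, on the minus strand, with motif letters in capitals. Cox6a1 lies at chr5:115348949-115349208 and holds NRF1 letters, Cox8a at chr19:7217607-7217866 and Uqcrh at chr4:116075061-116075320 hold ETS letters.
Cox6a1: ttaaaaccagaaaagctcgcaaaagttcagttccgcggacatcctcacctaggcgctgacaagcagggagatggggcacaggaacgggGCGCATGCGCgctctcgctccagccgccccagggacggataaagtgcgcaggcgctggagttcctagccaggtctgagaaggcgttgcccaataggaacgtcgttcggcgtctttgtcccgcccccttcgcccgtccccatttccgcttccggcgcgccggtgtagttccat
Cox8a: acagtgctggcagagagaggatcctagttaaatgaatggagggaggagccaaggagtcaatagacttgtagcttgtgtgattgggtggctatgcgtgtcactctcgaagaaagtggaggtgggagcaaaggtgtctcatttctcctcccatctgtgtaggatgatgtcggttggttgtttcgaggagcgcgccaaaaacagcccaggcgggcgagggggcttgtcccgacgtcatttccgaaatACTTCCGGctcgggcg
Uqcrh: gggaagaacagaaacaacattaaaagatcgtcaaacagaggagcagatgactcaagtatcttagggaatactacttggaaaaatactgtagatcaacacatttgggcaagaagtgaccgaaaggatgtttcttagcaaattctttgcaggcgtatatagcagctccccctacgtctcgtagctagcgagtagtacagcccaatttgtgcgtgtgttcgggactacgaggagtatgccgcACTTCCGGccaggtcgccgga

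Genes that assemble, feed or regulate the chain had medians near or above 0 in susceptible against naive mice. Of 17 tested complex I assembly factors, 12 were higher and 5 lower in susceptible mice, with a median of 0.02, and 0 passed (limma, 3 at an unadjusted p under 0.05, where 24% of all genes were and 2.6% passed). Of 31 assembly factors of complexes II to V, 18 were higher and 13 lower, with a median of 0.02 (-0.02 with normexp background correction), and 1 rose, Ttc19, which acts in complex III assembly, at 0.39 ± 0.10 (limma adjusted p = 0.0468). Of 17 electron carrier and coenzyme Q genes 10 were higher, with a median of 0.02, which turned to -0.0073 without naive 3 and -0.12 within slide 2, and 0 passed (limma, 1 unadjusted). Of 20 regulators of mitochondrial biogenesis 12 were higher, with a median of 0.08, and 0 passed (limma, 3 unadjusted).

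Of 19 TCA cycle and pyruvate dehydrogenase genes, 13 were higher in susceptible mice, with a median of 0.06, and 1 rose, the isocitrate dehydrogenase subunit gene Idh3a, at 0.51 ± 0.12 (limma adjusted p = 0.0412). Of 13 mitochondrial carriers and porins, 9 were higher, with a median of 0.10, and 1 rose, the calcium uniporter gene Mcu, at 0.68 ± 0.16 (limma adjusted p = 0.0412). The probe of Mcu was not above background on every array. Of 19 glycolysis genes, 15 were higher, with a median of 0.16, and 1 rose, the neuronal glucose transporter gene Slc2a3, at 0.67 ± 0.16 (limma adjusted p = 0.0431). Aldoc, an aldolase of astrocytes, fell by 0.53 ± 0.11 (limma adjusted p = 0.0311). It is itself 1 of the 9 astrocyte markers above, and counts among those that passed there. Over the 7 lists, 5 of 136 genes passed in susceptible mice (limma), where 2.6% of all genes did. An unadjusted p under 0.05 was found in 31 of the 136 (limma), where 24% of all genes had one. Without naive 3 these 5 adjusted p were between 0.0660 and 0.0946 (limma), and other single mice also ended the calls. Under quantile normalisation Aldoc differed by -0.15 (limma adjusted p = 0.539), and with normexp background correction Mcu differed by 0.25 (limma adjusted p = 0.287). In resilient mice 0 of the 136 genes of these 7 lists passed (limma, 32 at an unadjusted p under 0.05, where 20.3% of all genes were and 0.152% passed). Their medians in resilient mice lay between -0.07, for assembly factors of complexes II to V with 20 of 31 lower, and 0.17, for glycolysis with 15 of 19 higher.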

How the data were processed

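The authors deposited scanner tables made with Agilent Feature Extraction 11.0.1.1, per the file headers and the submitters' processing notes, in which spot signals are linear intensity values, background-subtracted and not scaled between arrays. The authors' value table holds log2 values that lie 1 constant per array from the logged scanner signal (column medians -3.09 to -2.74). Each array had 62976 spots; 3671 control spots and 104 to 184 outlier spots per array were left out, which gave 55681 probes. The log2 signal minus each array's 75th percentile was tested for genes well above background in every mouse of 1 or more groups, with limma 3.58.1 in R 4.3.3 (1 fit of all 14 arrays, Benjamini-Hochberg over 14445 genes, threshold 0.05). Replicate numbers in the labels name separate mice. The labels mention independent experiments but not which mouse belongs to which. Accessions were named through a RefSeq gene table of GRCm38.p6: 27509 probes received a name and 28172 did not. The table also lists 18 pseudogene symbols of the same form, so a probe may read near-identical copies. For 22 members with several probes, 4 had probes of opposite sign in susceptible against naive mice.

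The members, lists and named genes were chosen with earlier results of these data known. Named were members past the threshold, those of smallest p per complex (3 for susceptible against naive, otherwise 2), up to 3 per complex called with slide as a block, the 5 highest and 5 lowest differences, the brightest member per complex and isoforms fixed by name; of the other lists, genes past the threshold. Of the members this rule takes, 1 is not reported here. Alternatives were other scalings, normexp (offset 50, on median signals), filters, probes, blocks, a brightness covariate and leaving out each mouse. Simulated arrays of 14445 genes had independent normal noise for each gene, with no effect shared by a slide or a mouse. On them, 39% of changes of 0.5 and 84% of changes of 1 were recovered for susceptible against naive. For resilient against naive it was 19% and 69%. Smaller changes, and genes that move together within a mouse, were not simulated. The number of arrays limits the precision. Figures were drawn with matplotlib 3.10.9.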

Additional observations from a re-analysis of the deposited data

Results flagged for a closer look

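Atp5b, the catalytic beta subunit of ATP synthase, was the result whose highest naive mouse stood far from the others. Naive 3 had a log2 level of 7.66, the next naive mouse 7.42, and the gap was 0.712 of the naive range. Of 80 groups of mice checked in this way, over the named members and the median of all members, this was the only 1. Chance gives about 1 in 20, or 4 of 80.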

How the results depend on the processing

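The median difference of the members in susceptible against naive mice was -0.12. It turned to 0.0256 under quantile normalisation and to 0.0728 within slide 1, and was -0.33 within slide 2, -0.03 within slide 3, -0.03 with normexp and -0.06 with the brightness covariate. Leaving out each mouse moved it between -0.17 and -0.03, at -0.03 without naive 3. In resilient against naive mice it was -0.0371 under quantile normalisation -0.11 with normexp, -0.07 within slide 1 and -0.38 within slide 2. No scaling moved the median of all genes by over 0.1. The cause of these shifts was not tested.

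The count of members passing in susceptible against naive mice was 7 with slide as a block, 9 with scan day as a block and 1 with the replicate block, where 15.3%, 17.3% and 11.8% of all genes passed, and 0 to 1 when each mouse was left out (1 without naive 5). In resilient against naive mice it was 3 with slide as a block, 14 with scan day as a block, 2 with the replicate block and 2 with array brightness as a covariate, where 3.54%, 10.2%, 5.03% and 7.64% of all genes passed. With slide as a block, leaving out each mouse gave 0 to 14 and 0 to 9. Deviations of same-numbered mice of different groups correlated at 0.20 on average over 11 pairs (-0.38 to 0.71). Those of differently numbered mice correlated at -0.04 on average over 52 pairs (-0.57 to 0.65). Some same-numbered mice also shared a slide, and whether the numbers pair the mice was not tested.

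Among named members, the following differences in susceptible against naive mice changed sign. Under quantile normalisation Cox8a was at 0.00738, Sdhb at 0.13, Uqcr11 at 0.0244 and Uqcrh at 0.0149. With normexp Cox8b was at -0.0648 and Sdhb at 0.0580, and with its next probe Sdhb was at 0.0229. Within slide 1 Sdhb was at 0.19, within slide 2 Ndufs8 at -0.0474, and within slide 3 Cox8b at -0.0674. Leaving out each mouse, Cox8b lay between -0.0468 and 0.33 and Sdhb between -0.0835 and 0.0262, and with slide as a block Cox8b lay between -0.0256 and 0.21 and Sdhb between -0.11 and 0.0221. Sdhd in resilient mice was at 0.0292 within slide 1, and between -0.0875 and 0.0163 when each mouse was left out with slide as a block. Over all 39 tested named members, also those given as levels only, 21 changed sign at least once in susceptible and 15 in resilient mice under alternatives that kept every mouse. Single-gene checks are reported in full for the 22 and 11 members given as differences, a choice made after these sign changes were seen. The calls of Ttc19, Idh3a, Mcu, Slc2a3 and Aldoc held with slide as a block and ended without a filter on dim probes (limma adjusted p 0.0743 to 0.0990), with the array median for scaling (0.0657 to 0.204), with only the groups compared (0.0531 to 0.0824) and within each slide. All but Aldoc also ended with normexp, Aldoc with quantile normalisation, Slc2a3 and Ttc19 with the authors' value table and with the filter on 3 arrays, and Ttc19 with its next probe.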
